A study of Saccharomyces cerevisiae with 24 samples.

Results

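The enzymes that take glucose to pyruvate, ethanol and acetate were followed through all 8 conditions of an oxygen and heme series in *Saccharomyces cerevisiae*. The list held 30 genes, taken by name and not by their values: 15 major enzymes, 11 minor isozymes, 2 kinases that make the glycolytic activator fructose 2,6-bisphosphate, and 2 aldehyde dehydrogenases. Of these, 29 were measured on each of the 2 array types, among 5449 genes on the first and 5656 on the second. The exception was *TDH2* (YJR009C), 1 of the 3 glyceraldehyde-3-phosphate dehydrogenase genes, which had no probe set of its own on either type. Strain L51, in which *HAP1* is disrupted by *LEU2* (*hap1::LEU2*) beside mutations in *ade1*, *his4*, *leu2*, *trp1* and *ura3*, carried either an empty vector (*Δhap1* cells) or a low-copy plasmid with the *HAP1* gene (*HAP1* cells). *HAP1* encodes a heme-responsive activator, and where it was present it was carried on the plasmid. *Δhap1* cells were kept without oxygen for 6 h or in air. *HAP1* cells were kept without oxygen for 1.5 or 6 h, exposed in air to cobalt chloride (400 µM, 6 h), or kept in air alone. Each of these 6 conditions had 3 arrays, and the titles of all these arrays name L51. The study also says that a different yeast strain served for 1 of the 3 replicates, without naming the replicate or the strain. Strain MHY100, which carries a *hem1* deletion with mutations in *ade1*, *his4*, *leu2* and *ura3* and depends for heme on added 5-aminolevulinic acid, was given 2.5 µg/ml of it in heme-deficient cultures and 250 µg/ml in heme-sufficient ones, again with 3 arrays each. All cultures grew in synthetic complete medium.

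Glycolysis splits glucose into pyruvate, and in yeast pyruvate decarboxylase and alcohol dehydrogenase then turn pyruvate into ethanol, which regenerates NAD+ without oxygen. *S. cerevisiae* ferments glucose in air as well, so most of these enzymes are among its most abundant proteins whether or not oxygen is present. Many steps have a major isozyme that carries the flux on glucose and a minor one made in other states, such as on poor carbon sources or under stress.

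*HAP1* RNA followed the labels, at a log2 intensity of 5.76 to 6.57 on the 6 *Δhap1* arrays and 9.77 to 12.13 on the 12 arrays of *HAP1* cells. The title of the cobalt arrays names *HAP1* cells while other labels of theirs name the empty plasmid, and *HAP1* stood there at 10.23 to 10.98. Some arrays went against their label on genes known to answer to oxygen. On the replicate 3 array labelled 1.5 h, *ANB1* and *DAN1*, which are expressed when oxygen is scarce, stood at 9.02 and 8.01, against 13.41 or more on the other 1.5 h arrays. On the replicate 3 array labelled cobalt, *CYC1*, an oxygen-induced cytochrome *c* gene, stood at 9.41, against 13.46 or more on the other cobalt arrays, and *ANB1* at 12.22, against 9.64 or less. On the replicate 3 array of *HAP1* cells at 6 h, *ANB1* and *DAN1* were lower than on replicates 1 and 2 but above every aerobic *HAP1* array. Some of the results that rest on these arrays are also given without them. Between 66.2% and 94.3% of genes lay above background on an L51 array, background being the 95th percentile of that array's *Schizosaccharomyces pombe* probe sets, to which no RNA here belongs. The strains, array types and normalizations differed between the L51 and the heme arrays, so no level was compared across them. These are values of bulk RNA, in which fewer cells with a transcript and less of it in every cell cannot be told apart.

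The major enzymes were among the brightest genes of the L51 arrays and as a class varied least within the list. Their mean log2 intensity over the 18 arrays was between 13.81 (*PFK1*) and 14.95 (*TDH3*), which placed them at or above the 96.1st percentile of all genes. The highest and the lowest array of a major enzyme differed by a median of 0.26 on the log2 scale, against 1.89 for the 11 minor isozymes and 2.05 for all genes. *TDH3*, the main glyceraldehyde-3-phosphate dehydrogenase, had the smallest range of the list at 0.18, and 11 of the 14 major enzymes stayed under 0.5. The other 3 were *HXK2*, which encodes the main hexokinase on glucose (0.56), *PFK1*, a subunit of phosphofructokinase (0.90), and *ENO1*, an enolase (1.06). The classes overlapped, since the minor isozymes *ADH3* (0.56), *PDC5* (0.81) and *ADH4* (1.00) had ranges like these. The remaining minor isozymes had ranges of 1.87 (*ADH5*) or more. Bright genes as a class varied less than the rest, and the 196 genes outside the list that were as bright as the dimmest major enzyme had a median range of 0.61. Some members of similar brightness varied more, since *GLK1* (glucokinase) had a mean of 13.76 and a range of 2.70, and *ALD6* (cytosolic aldehyde dehydrogenase) a mean of 13.82 and a range of 1.26. The brightest probe set of each L51 array stood between 14.89 and 15.06, so the brightest members lay at the top of the scale. The part of brightness itself, or of this top of the scale, in these narrow ranges was not tested. On the heme arrays the median range over 6 arrays was 0.38 for the major enzymes, 1.08 for the minor isozymes and 0.71 for all genes.

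**Figure D1:**
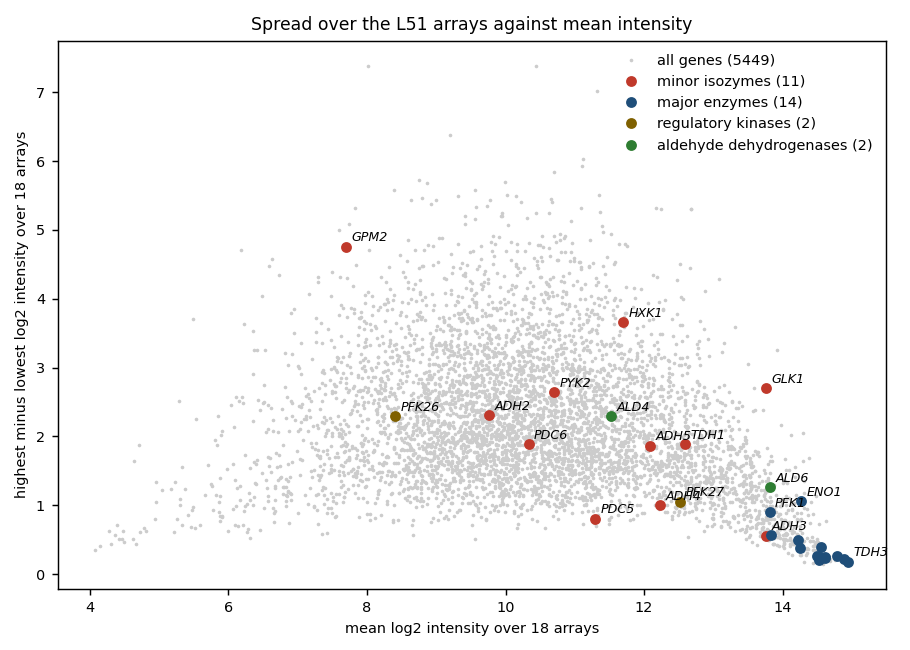
Highest minus lowest log2 intensity over the 18 L51 arrays (vertical axis) against the mean log2 intensity (horizontal axis), with 1 grey point for each of 5449 genes and coloured points for the 29 measured members. The major enzymes lie together at the bright, narrow end, whereas *GPM2*, *HXK1*, *GLK1* and *PYK2* have ranges of 4.76, 3.66, 2.70 and 2.64.

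After 1.5 h without oxygen no member passed the test (limma on all 18 L51 arrays with the replicate number as a block, Benjamini-Hochberg adjusted p under 0.05 over all genes), and over all genes 0.0367% passed. At an unadjusted p under 0.05 there were 2 members (*ALD4* and *PFK27*, both lower), against 15.7% of all genes. The members had a median log2 difference of -0.06 from aerobic *HAP1* cells, against 0.14 over all genes. For several members replicate 3 differed in direction from the others. *HXK1* (YFR053C), the minor hexokinase, had log2 intensities of 10.19, 9.89 and 11.98 on the 1.5 h arrays of replicates 1 to 3, against 11.80, 11.84 and 10.34 in air. *GLK1* (YCL040W), the glucokinase, stood at 11.96, 13.09 and 13.91 at 1.5 h, against 13.81, 14.66 and 12.84 in air. *PYK2* (YOR347C), the minor pyruvate kinase, stood at 9.14, 10.06 and 10.84 at 1.5 h, against 10.59, 11.75 and 9.86 in air. In all of these, replicates 1 and 2 were lower at 1.5 h than in air and replicate 3 was higher. *ALD4* (YOR374W), the mitochondrial aldehyde dehydrogenase, had the same pattern, at 10.52, 10.45 and 11.81 at 1.5 h, against 11.90, 12.60 and 11.11 in air. For each of these genes the replicate 3 array was the highest at 1.5 h and also the lowest in air, so both arrays enter the reversed direction. The part of each was not tested.

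Replicate 3 at 1.5 h is the array on which *ANB1* and *DAN1* stood low. Without it, a fit chosen after the data were seen, these 4 genes fell at 1.5 h, *ALD4* by 1.57 (SE 0.30, limma adjusted p = 0.013), *GLK1* by 1.50 (SE 0.43, adjusted p = 0.047), *HXK1* by 1.50 (SE 0.42, adjusted p = 0.046) and *PYK2* by 1.40 (SE 0.31, adjusted p = 0.0225). In that fit 9.03% of all genes passed, 4.06% higher and 4.97% lower, and the aerobic array of replicate 3 was kept. With all arrays the log2 differences were -0.94 (SE 0.41) for *ALD4*, -0.78 (SE 0.51) for *GLK1*, -0.64 (SE 0.56) for *HXK1* and -0.72 (SE 0.43) for *PYK2*, with adjusted p between 0.29 and 0.59. Members that were lower at 1.5 h in all 3 replicates with every array kept included *ADH5*, a minor alcohol dehydrogenase, at -0.68 (SE 0.41, adjusted p = 0.42), *ADH2*, the dehydrogenase that consumes ethanol, at -0.53 (SE 0.31, adjusted p = 0.41), and *PFK27*, a fructose 2,6-bisphosphate kinase, at -0.37 (SE 0.16, adjusted p = 0.30). *ADH5* was the only member whose 1.5 h arrays all lay below the aerobic ones, and over all genes 2.22% did so. None lay above without overlap, against 6.77% of all genes. In the same direction in every replicate were also *PDC5*, a minor pyruvate decarboxylase, at 0.18 (SE 0.19, adjusted p = 0.66), and *ALD6* at 0.02 (SE 0.24, adjusted p = 0.97). The major enzymes other than *ENO1* (-0.36, SE 0.17, adjusted p = 0.34) lay between -0.13 and 0.24.

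At 6 h without oxygen the minor isozymes of *HAP1* cells tended to stand above their aerobic levels, all but *GPM2* without passing the test. *GLK1*, *PYK2*, *ADH2*, *ADH4* and *ADH5* were not higher in every replicate. The 11 minor isozymes had a median log2 difference of 0.53 and the 14 major enzymes one of 0.03, against -0.10 over all genes. Of the 29 members 1 passed the test, and over all genes 2.15% did. That member was *GPM2* (YDL021W), a homologue of phosphoglycerate mutase thought to have lost the enzyme's function, which rose by 2.13 on the log2 scale (SE 0.50, limma adjusted p = 0.044). Over all genes 1.32% rose and 0.826% fell. *GPM2* stood at 10.67, 8.23 and 7.91 at 6 h, against 7.58, 6.54 and 6.30 in air. All aerobic arrays and all but replicate 1 of the 6 h arrays were not above background. The mean at 6 h was 1.44-fold over background in air. That mean includes the 6 h arrays not above background, so 1.44-fold is no firm lower bound. The call was lost without replicate 1 (difference 1.65, adjusted p = 0.96) and without replicate 2 (2.35, adjusted p = 0.14).

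The next largest differences at 6 h were in *HXK1* and in *TDH1* (YJL052W), the minor glyceraldehyde-3-phosphate dehydrogenase. *HXK1* stood at 13.51, 12.65 and 13.18 at 6 h, against 11.80, 11.84 and 10.34 in air, a difference of 1.79 (SE 0.56, limma adjusted p = 0.12). In replicates 1 to 3 the difference was 1.71, 0.81 and 2.84, the last against the lowest aerobic array. *TDH1* stood at 13.45, 12.96 and 13.39 at 6 h, against 12.42, 12.27 and 12.03 in air, a difference of 1.03 (SE 0.27, adjusted p = 0.068). Neither gene's arrays overlapped between 6 h and air, although neither passed the threshold. *TDH1* passed it when the arrays were rescaled to equal quantiles or when 3 arrays were left out together (replicate 3 at 1.5 h, at 6 h in *HAP1* cells, and with cobalt). Without these 3 arrays *HXK1* was at 1.45 (SE 0.42, limma adjusted p = 0.063), still without a call. *GPM2* was then at 2.57 (SE 0.38, limma adjusted p = 0.0026), within the limit of background given above. *PDC6*, the minor pyruvate decarboxylase, differed by 0.53 (SE 0.25, adjusted p = 0.30), *GLK1* by 0.68 (SE 0.51, adjusted p = 0.53) and *PYK2* by 0.62 (SE 0.43, adjusted p = 0.49). In 5 of 29 members (*ENO1*, *GPM2*, *HXK1*, *PGI1* and *TDH1*) every 6 h array lay above every aerobic array, against 4.11% of all genes, and in none did every 6 h array lie below, against 7.62%.

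The major enzymes, which lay near the top of the array scale, differed little at 6 h. How far that position narrowed their differences was not tested. *TDH3* had a log2 difference of 0.04 (95% interval -0.27 to 0.36), *PDC1*, the main pyruvate decarboxylase, -0.03 (-0.35 to 0.29), and *ADH1*, the main ethanol-forming alcohol dehydrogenase, -0.05 (-0.36 to 0.27). *ADH1* was lower at 6 h in all 3 replicates, by 0.03 to 0.06. The enolase *ENO1* stood at 14.47, 14.38 and 14.70 at 6 h, against 14.25, 14.06 and 14.21 in air (0.34, SE 0.17, limma adjusted p = 0.34). *PFK27* was lower in all 3 replicates, at -0.28 (SE 0.16, adjusted p = 0.41).

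**Figure D2:**
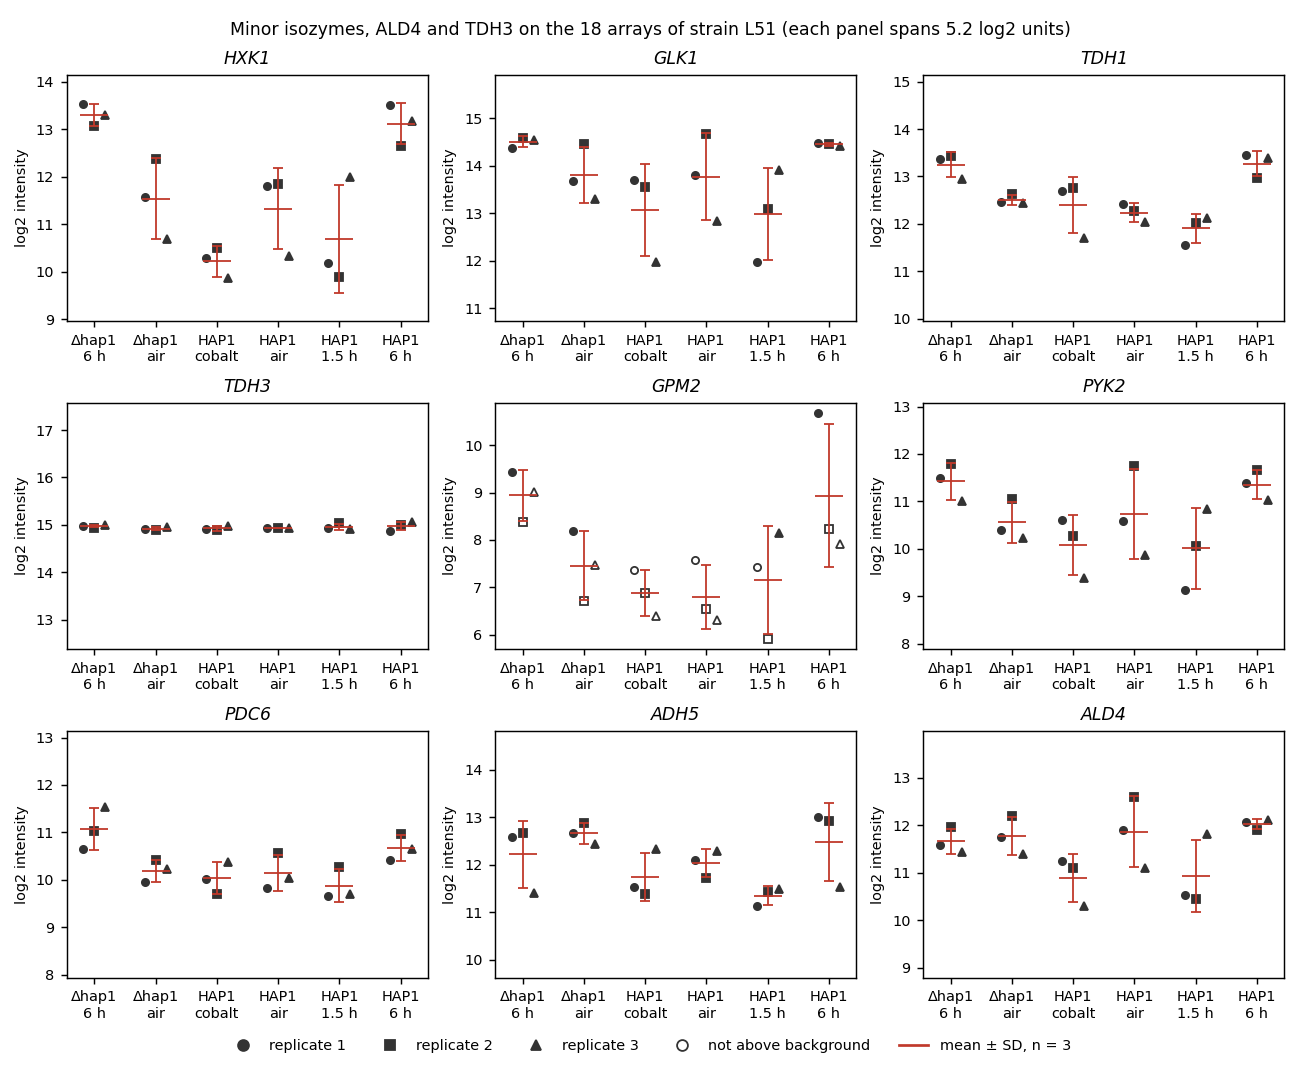
Log2 intensity (vertical axis) of 7 minor isozymes, *ALD4* and the major enzyme *TDH3* on each L51 array, by condition (horizontal axis). Markers give the replicate, open markers arrays not above background, and bars the mean ± SD of 3 arrays. *TDH3* lies between 14.88 and 15.06 throughout, and *HXK1* and *TDH1* are highest at 6 h in both genotypes, with all 6 h arrays above all others.

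In *Δhap1* cells at 6 h the minor isozymes had a median log2 difference of 0.74 and the major enzymes one of 0.05. Relative to aerobic *Δhap1* cells 1 member rose and 1 fell, and over all genes 10.9% passed the test, 2.24% upward and 8.64% downward. *PDC6* (YGR087C) stood at 10.65, 11.02 and 11.54 at 6 h, against 9.95, 10.41 and 10.22 in air, a rise of 0.88 (SE 0.25, limma adjusted p = 0.042). *PFK27* (YOL136C) stood at 12.42, 12.01 and 12.10 at 6 h, against 12.93, 12.68 and 12.98 in air, and fell by 0.69 (SE 0.16, adjusted p = 0.025). The arrays of neither gene overlapped. Without replicate 1 or without replicate 3 no member passed, and without replicate 2 *PDC6* and *HXK1* did. The median over all genes was itself -0.30 in this comparison and -0.03 after rescaling to equal quantiles, where *PFK27* was at -0.51 (adjusted p = 0.086) and *PDC6* at 1.19 (adjusted p = 0.053), and *GPM2* and *TDH1* passed in their place.

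*HXK1* stood at 13.53, 13.07 and 13.29 in *Δhap1* cells at 6 h, against 11.57, 12.36 and 10.68 in aerobic *Δhap1* cells, a difference of 1.76 (SE 0.56, limma adjusted p = 0.061). *GPM2*, with only replicate 1 above background in either group, was at 1.48 (SE 0.50, adjusted p = 0.071), *TDH1* at 0.74 (SE 0.27, adjusted p = 0.089) and *ADH2* at 0.86 (SE 0.31, adjusted p = 0.089). Each of these was higher in all 3 replicates with no overlap between the groups. In 8 of 29 members every 6 h array lay above every aerobic one, against 6.92% of all genes, the others being *CDC19*, the main pyruvate kinase, *ENO1*, *PDC6* and *PGI1*, phosphoglucose isomerase. In 1 member, *PFK27*, every 6 h array lay below, against 13.9% of all genes. *ADH5* was lower in all 3 replicates, at -0.44 (SE 0.41, adjusted p = 0.48), as was *TPI1*, triose phosphate isomerase, at -0.04.

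Set against aerobic *HAP1* cells, *Δhap1* cells at 6 h had 3 members higher and 1 lower, where 7.05% of all genes passed the test, 2.44% upward and 4.61% downward. *GPM2* was higher by 2.13 (SE 0.50, limma adjusted p = 0.024), although all aerobic arrays were not above background. Its mean was 1.44-fold over background in air, again no firm lower bound. It stood at 9.43, 8.38 and 9.01 at 6 h, of which only the first was above background. *TDH1* stood at 13.36, 13.44 and 12.94 at 6 h, against 12.42, 12.27 and 12.03 in aerobic *HAP1* cells, higher by 1.01 (SE 0.27, adjusted p = 0.039). *PDC6* was higher by 0.93 (SE 0.25, adjusted p = 0.041), and *PFK27* fell by 0.59 (SE 0.16, adjusted p = 0.046). *HXK1* was at 1.97 (SE 0.56, adjusted p = 0.051). Without overlap 10 members were higher and 1 was lower, against 5.96% and 9.67% of all genes. Here too no member passed without replicate 1 or without replicate 3, and without replicate 2 *PDC6* and *HXK1* did. This comparison and that of *HAP1* cells at 6 h share their aerobic arrays.

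Every call among the L51 members at 6 h depended on the block, since without it no member passed in any of these comparisons. No 6 h array shared a hybridization round with an aerobic array, and the 1.5 h and cobalt arrays link the rounds of both. With the round as the block none passed either, while in *HAP1* cells at 6 h *HXK1* was at 2.56 (SE 0.82, limma adjusted p = 0.23), *GPM2* at 2.53 (SE 0.76, adjusted p = 0.23) and *TDH1* at 1.25 (SE 0.44, adjusted p = 0.27).

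Whether the 6 h change differed between *Δhap1* and *HAP1* cells was tested within the same fit. No member passed, nor did any other gene (0% of genes; at an unadjusted p under 0.05, 1.74% of genes and 0 members), and the smallest limma adjusted p among the members was 0.93. *HXK1* changed by 1.76 in *Δhap1* cells and by 1.79 in *HAP1* cells, a difference of -0.03 with a 95% interval of -1.74 to 1.68. The interval is wide enough to hold large differences either way. Leaving out *GPM2*, which was at background in aerobic *HAP1* cells, the members farthest apart in 1 direction over all replicates were *ADH5* (-0.89, SE 0.58), *PFK27* (-0.41, SE 0.23) and *PFK1* (-0.40, SE 0.26) on the lower side in *Δhap1* cells, and *ADH2* (0.51, SE 0.44), *PDC6* (0.35, SE 0.35) and *PDC1* (0.09, SE 0.21) on the higher side.

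**Figure D3:**
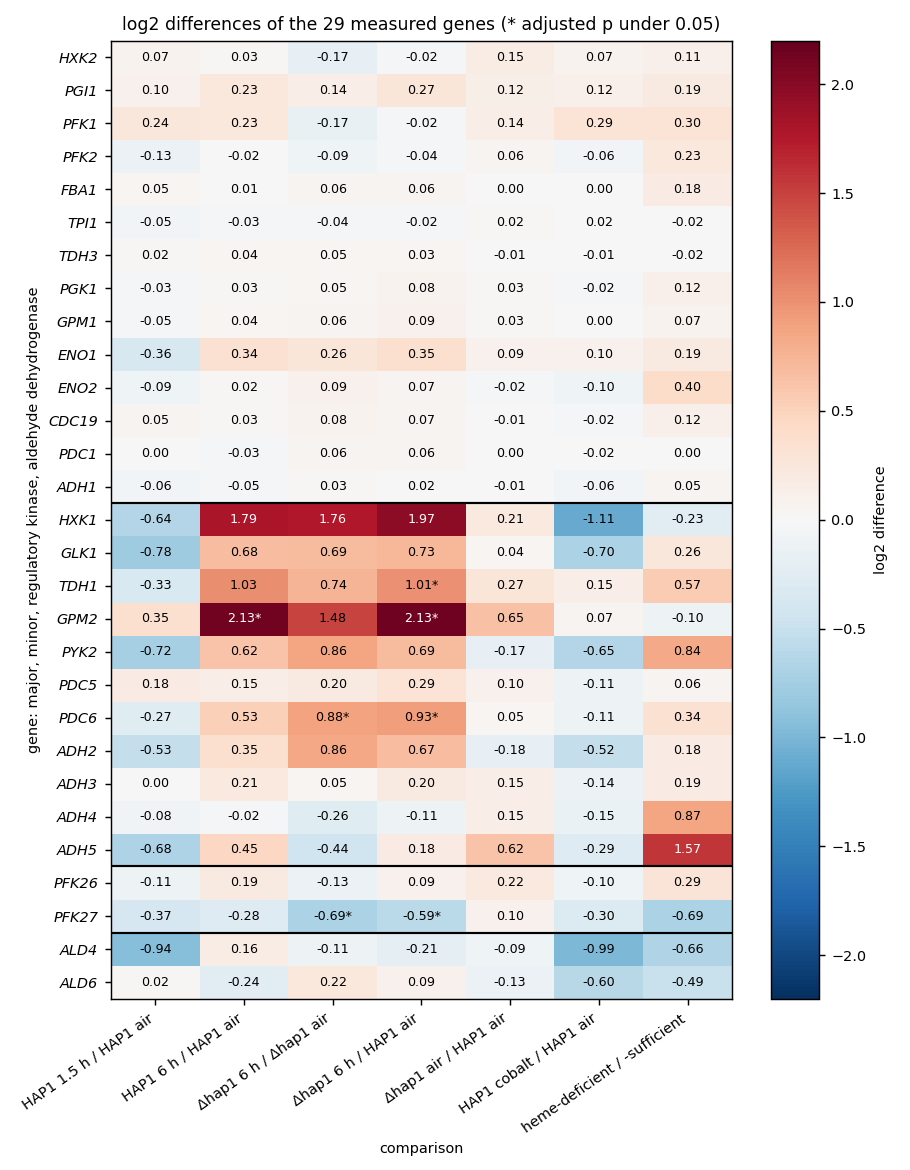
Log2 differences of the 29 measured members (down the page, grouped as major enzymes, minor isozymes, regulatory kinases and aldehyde dehydrogenases) in 7 comparisons (across, condition over its reference), with an asterisk where the limma adjusted p was under 0.05. Most of the strong colour lies in the minor isozymes, which are largely red at 6 h without oxygen and in part blue at 1.5 h and with cobalt.

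The 6 h arrays were also set directly against the 1.5 h arrays of *HAP1* cells, a comparison added after the data were seen. Here 5 members rose and none fell, where 15.3% of all genes passed the test, 3.56% upward and 11.7% downward, and the median over all genes was -0.23. *HXK1* was higher at 6 h by 2.43 (SE 0.56, limma adjusted p = 0.022), *GPM2*, with 1 array of each time above background, by 1.77 (SE 0.50, adjusted p = 0.035), *TDH1* by 1.36 (SE 0.27, adjusted p = 0.018), *PDC6* by 0.80 (SE 0.25, adjusted p = 0.048) and *ENO1* by 0.70 (SE 0.17, adjusted p = 0.026). *ENO1* was the major enzyme with the clearest time course, at 14.25, 14.06 and 14.21 in air, 13.67, 13.63 and 14.14 at 1.5 h, and 14.47, 14.38 and 14.70 at 6 h. All its 6 h arrays lay above all its 1.5 h and aerobic arrays. The list counts *ENO1* among the major enzymes, while in the isozyme pairs below it stands as the minor partner of *ENO2*. The 6 h arrays lay above the 1.5 h arrays without overlap in 8 members, against 4.73% of all genes, and below them in none, against 17.7%. *GLK1* differed by 1.47 (SE 0.51, adjusted p = 0.064), *PYK2* by 1.35 (SE 0.43, adjusted p = 0.051), *ADH5* by 1.13 (SE 0.41, adjusted p = 0.073) and *ALD4* by 1.10 (SE 0.41, adjusted p = 0.079), each higher in all 3 replicates. Without the replicate 3 array of 1.5 h, 7 members rose (*HXK1*, *GLK1*, *TDH1*, *GPM2*, *ENO1*, *PYK2* and *ALD4*), where 26.1% of all genes passed and 10.4% rose, and *HXK1* was then higher by 3.29 (SE 0.42, adjusted p = 0.00049). *PDC6* no longer passed in that fit. With replicate 1 or replicate 2 left out of every condition no member passed.

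In air no member passed the test between *Δhap1* and *HAP1* cells, and 0.0184% of all genes did (at an unadjusted p under 0.05, 0 members and 1.39% of genes). *ADH5* (0.62, SE 0.41) and *TDH1* (0.27, SE 0.27) were higher in aerobic *Δhap1* than in aerobic *HAP1* cells in all 3 replicates, with a limma adjusted p of 0.999. *GPM2* stood at 8.18, 6.72 and 7.47 in *Δhap1* cells, against 7.58, 6.54 and 6.30 in *HAP1* cells, and since only the first of these 6 arrays was above background its difference is not given. *ADH5* stood at 12.68, 12.87 and 12.43 in *Δhap1* cells, against 12.09, 11.71 and 12.30 in *HAP1* cells. Its arrays and those of *PGI1* and *TDH1* did not overlap between the genotypes, 3 of 29 members against 2.57% of all genes.

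With cobalt, likewise, no member passed the test, as against 0.147% of all genes. At an unadjusted p under 0.05 there were 2 (*ALD4* and *ALD6*, both lower), against 10.2% of all genes. The largest differences were in *HXK1* and the aldehyde dehydrogenases. *HXK1* stood at 10.28, 10.50 and 9.86 with cobalt, against 11.80, 11.84 and 10.34 in air (-1.11, SE 0.56, limma adjusted p = 0.47). *ALD4* stood at 11.25, 11.09 and 10.30 with cobalt, against 11.90, 12.60 and 11.11 in air (-0.99, SE 0.41, adjusted p = 0.47). *ALD6*, which makes most of the cytosolic acetate, stood at 13.58, 13.56 and 12.93 with cobalt, against 13.86, 14.01 and 14.01 in air (-0.60, SE 0.24, adjusted p = 0.47). Each was lower in all 3 replicates, and for *ALD6* the groups did not overlap. Without overlap 1 member (*PGI1*) was higher and 3 (*ALD6*, *ENO2* and *PGK1*) were lower, against 2.26% and 5.51% of all genes. *GLK1* was lower in all 3 replicates as well (-0.70, SE 0.51, adjusted p = 0.56). *PFK1* (0.29, SE 0.18), *PGI1* (0.12, SE 0.15) and *ENO1* (0.10, SE 0.17) were higher in all 3, with adjusted p between 0.52 and 0.81. In replicates 1 to 3 *ALD6* differed by -0.28, -0.45 and -1.08, the last of these on the cobalt array with low *CYC1*. Without the 3 arrays that stood apart, *ALD6* was at -0.35 (SE 0.19, adjusted p = 0.32) and *GLK1* at -0.38 (SE 0.38, adjusted p = 0.56), while *HXK1* was at -1.24 (SE 0.42, adjusted p = 0.23) and *ALD4* at -0.93 (SE 0.27, adjusted p = 0.20), again with no call.

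Heme deficiency was tested on the 6 arrays of MHY100, without a block. The labels of 1 heme-sufficient array give 2 replicate numbers. Replicate numbers of the heme arrays follow the titles here, so their pairing is uncertain. No member passed the test, and 1.64% of all genes did. At an unadjusted p under 0.05 there were 6 (4 higher and 2 lower), against 18.7% of all genes. The closest were *PYK2* and *ADH5*. *PYK2* stood at 7.68, 7.21 and 7.45 in heme-deficient cells, against 6.72, 6.54 and 6.55 in heme-sufficient cells (0.84, SE 0.17, limma adjusted p = 0.060). *ADH5* (YBR145W) stood at 9.44, 8.23 and 9.67 in heme-deficient cells, against 7.68, 7.69 and 7.26 in heme-sufficient cells (1.57, SE 0.36, adjusted p = 0.089). Neither gene's arrays overlapped between the groups. With the replicate number as a block both passed (smallest adjusted p = 0.027, with 7.21% of all genes), and with the hybridization round as a block, which drops heme-deficient replicate 3 because its round is not known here, *ADH4* and *PFK27* passed too (17.3% of all genes). Without heme-deficient replicate 2 both *PYK2* and *ADH5* passed.

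*ADH4*, a structurally unrelated alcohol dehydrogenase, stood at 10.66, 9.40 and 9.12 in heme-deficient cells, against 8.78, 8.82 and 8.96 in heme-sufficient cells (0.87, SE 0.36, limma adjusted p = 0.26), so that replicate 1 was far above the rest. *ENO2*, the main enolase on glucose, was the major enzyme with the largest difference (0.40, SE 0.17, adjusted p = 0.25). On the lower side were *PFK27* (-0.69, SE 0.29, adjusted p = 0.26), *ALD4* (-0.66, SE 0.31, adjusted p = 0.29) and *ALD6* (-0.49, SE 0.19, adjusted p = 0.24), each lower in all 3 replicates. *ALD6* stood at 9.06, 9.22 and 9.11 in heme-deficient cells, against 9.25, 9.79 and 9.82 in heme-sufficient cells. Without overlap, 7 members were higher and 1 was lower, against 7.9% and 16.7% of all genes. *HXK1*, at 9.92, 10.05 and 9.58 in heme-deficient cells, against 9.92, 10.09 and 10.23 in heme-sufficient cells, differed by -0.23 (SE 0.18, adjusted p = 0.48), and *TDH1* by 0.57 (SE 0.55, adjusted p = 0.56), with replicate 3 lower and the others higher.

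**Figure D4:**
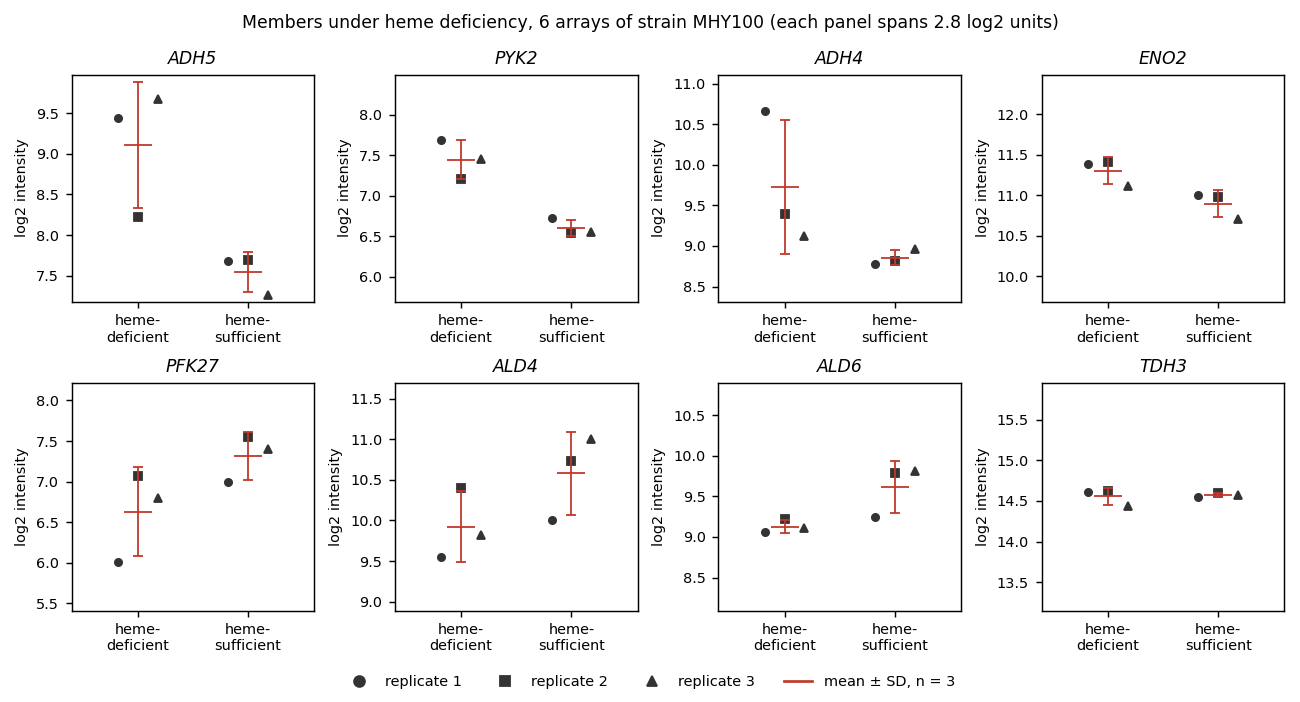
Log2 intensity (vertical axis) of 8 members on each of the 6 MHY100 arrays, heme-deficient on the left and heme-sufficient on the right of each panel, with markers for the replicate and bars for the mean ± SD of 3 arrays. *ADH5*, *PYK2*, *ADH4* and *ENO2* lie higher without overlap, *ALD6* lies lower, and *TDH3* stays between 14.44 and 14.62.

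For each step with several isozymes, the within-array difference between the minor and the major one was tested as a further feature of the same fit, which asks whether both changed equally and compares no level between probe sets. Of 15 pairs 14 could be measured, and 6 tests passed over the 8 planned comparisons, all with the minor isozyme higher relative to the major. Over all genes, 2.15% passed in *HAP1* cells at 6 h and 1.64% under heme deficiency. For *Δhap1* cells at 6 h, 10.9% of all genes passed relative to aerobic *Δhap1* cells and 7.05% relative to aerobic *HAP1* cells. As the major isozymes moved little, the values of these pairs lay near the change of the minor gene alone. The pair tests use the same arrays as the gene tests and are not independent of them. *GPM2* gained on *GPM1*, the active phosphoglycerate mutase, by 2.09 (SE 0.48, limma adjusted p = 0.043) in *HAP1* cells at 6 h and by 2.05 (SE 0.48, adjusted p = 0.025) in *Δhap1* cells at 6 h relative to aerobic *HAP1* cells, within the limit of background given above. All 5 calls on L51 arrays were lost without the block and without replicate 1. *HXK1* gained on *HXK2* by 1.93 (SE 0.58, adjusted p = 0.049) in *Δhap1* cells at 6 h relative to aerobic *Δhap1* cells. *PDC6* gained on *PDC1* in *Δhap1* cells at 6 h, by 0.82 (SE 0.22, adjusted p = 0.037) relative to aerobic *Δhap1* cells and by 0.86 (SE 0.22, adjusted p = 0.036) relative to aerobic *HAP1* cells. *ADH5* gained on *ADH1* by 1.52 (SE 0.29, adjusted p = 0.049) under heme deficiency, by 1.82, 0.70 and 2.04 in the 3 replicates, and this call was lost when any 1 heme array other than heme-deficient replicate 2 was left out.

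In the added comparison of 6 h with 1.5 h, 5 pairs passed, where 15.3% of all genes did. *HXK1* gained on *HXK2* by 2.47 (SE 0.58, limma adjusted p = 0.023), *TDH1* on *TDH3* by 1.34 (SE 0.28, adjusted p = 0.020), *GPM2* on *GPM1* by 1.68 (SE 0.48, adjusted p = 0.037), *PDC6* on *PDC1* by 0.83 (SE 0.22, adjusted p = 0.031) and *ALD4* on *ALD6* by 1.37 (SE 0.40, adjusted p = 0.039). All replicates had the same direction except replicate 3 of the *GPM2* pair. *TDH1* and *TDH3*, *ENO1* and *ENO2*, *HXK1* and *HXK2*, the *PDC* genes, and the *ADH* genes other than *ADH4* are close in sequence. How far a probe set of one also bound RNA of another is not known here, which makes values of single members uncertain. On the heme arrays 4 further probe sets named a member together with another gene and were not used.

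**Figure D5:**
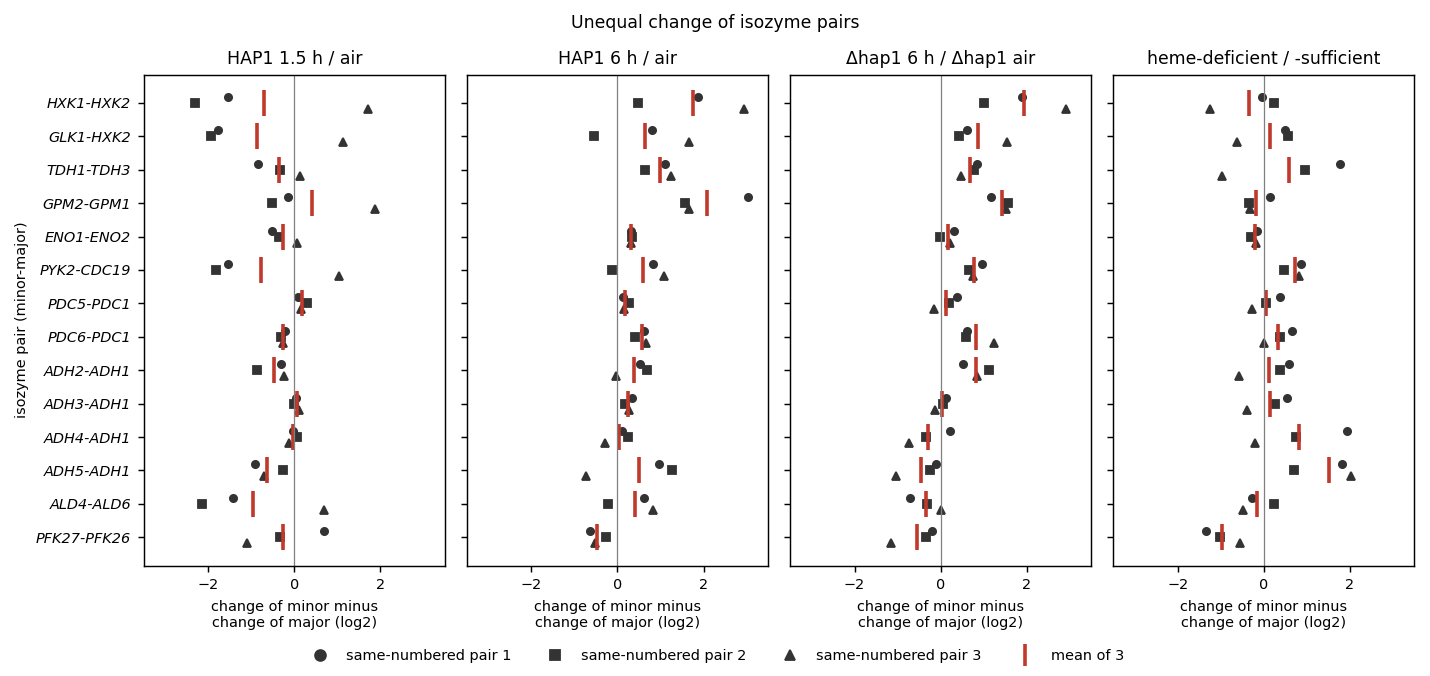
Change of the minor minus change of the major isozyme on the log2 scale (horizontal axis) for 14 pairs (down the page) in 4 comparisons (panels, condition over its reference), with a marker for each same-numbered pair of arrays and a red bar for their mean. At 6 h *HXK1*, *TDH1*, *GPM2* and *PDC6* lie right of 0 in all replicates of both genotypes, and at 1.5 h replicate 3 lies apart from replicates 1 and 2 for *HXK1*, *GLK1*, *GPM2*, *PYK2* and *ALD4*.

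The pathways around glycolysis were counted in the same comparisons. Fits without the block, with the hybridization round as the block or without a replicate were read only for members and isozyme pairs. How far the calls here and in the next paragraph depend on these choices was not tested. Among 12 regulators, *HAP4*, the activator subunit of the Hap2/3/4/5 complex of respiratory genes, fell by 2.06 (SE 0.44, limma adjusted p = 0.033) in *HAP1* cells at 6 h, by 1.66 (SE 0.44, adjusted p = 0.034) in *Δhap1* cells at 6 h relative to aerobic *Δhap1* cells, by 2.19 (SE 0.44, adjusted p = 0.013) relative to aerobic *HAP1* cells, and by 1.43 (SE 0.22, adjusted p = 0.022) under heme deficiency. Over all genes 0.826%, 8.64% and 4.61% fell in these 6 h comparisons, in the order given. Under heme deficiency 1.64% of all genes passed in either direction. The glycolytic activators *GCR1*, *GCR2* and *RAP1* fell in *Δhap1* cells at 6 h relative to aerobic *Δhap1* cells, by 1.43, 1.52 and 1.18 (SE 0.40, 0.42 and 0.31, adjusted p = 0.038, 0.039 and 0.032). *GCR2* was not above background on replicates 2 and 3 at 6 h, and *GCR1* was not on replicate 3. In the same comparison 8.64% of all genes fell, the median over all genes was -0.30, and no major glycolytic enzyme passed the test. Between 6 h and 1.5 h, *HAP4*, *GCR2* and *MIG1*, a glucose repressor, fell, where 11.7% of all genes did.

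Among 11 pentose phosphate genes none passed the test in *HAP1* cells at 6 h, with cobalt or under heme deficiency. Of them 2 rose in *Δhap1* cells at 6 h relative to aerobic *Δhap1* cells, *TKL2*, a transketolase, by 1.32 (SE 0.34, limma adjusted p = 0.029), although it was not above background in air or on replicate 3 at 6 h, and *NQM1*, a transaldolase, by 1.26 (SE 0.37, adjusted p = 0.045). Over all genes 2.24% rose in that comparison. *NQM1* was also higher relative to aerobic *HAP1* cells, by 1.39 (SE 0.37, adjusted p = 0.038), where 2.44% of all genes were higher. Among 14 genes of the pyruvate and acetate branch, *ALD2*, a cytosolic aldehyde dehydrogenase, was higher in *Δhap1* cells at 6 h than in aerobic *HAP1* cells by 1.29 (SE 0.33, adjusted p = 0.035). Between 6 h and 1.5 h, *NQM1*, *GND2* (the minor phosphogluconate dehydrogenase), *RPE1* (ribulose phosphate epimerase) and *ACS1* (an acetyl-CoA synthetase) rose, the last by 1.79 (SE 0.53, adjusted p = 0.039), with replicate 3 in the opposite direction at -0.44. In that comparison 3.56% of all genes rose.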

How the data were processed

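RNA from 24 cultures was hybridized to Affymetrix arrays. Per the labels, the authors processed the images in GCOS and summarized probe sets by RMA. The version of RMA is not given in the sources used here. The deposited intensity values are linear and were normalized separately for the 2 array types. The log2 of each intensity was taken here. A gene with several probe sets was represented by the brightest of them on average. The study set each array against a corresponding reference array, and same-numbered L51 arrays were hybridized on the same day. The L51 arrays were therefore fitted together with limma 3.58.1 (R 4.3.3) by condition, with the replicate number as a block. Whether a replicate number also marks the different strain that the study mentions is not known here. Deviations of same-numbered arrays from the condition means had median correlations of 0.56, 0.71 and 0.25, the lowest pairs being -0.09, -0.38 and -0.44. No block entered the fit of the heme arrays, because the labels of 1 array give 2 replicate numbers. P-values were adjusted by Benjamini-Hochberg over all genes, with a threshold of 0.05. The fit was tested on simulated data. The number of arrays limits the precision.

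The members, lists and tests were chosen with earlier results of these data known. Full statistics are given for members past the threshold and for the 3 largest differences each way among members with the same direction in all 3 replicates, and other values were chosen after they were seen. Separate cultures are stated by the study's methods. Where every array of 1 group lay at or below background, a fold is given from the mean of the brighter group over the higher of background and signal in the dimmer. It is no firm lower bound where arrays of the brighter group were not above background either. The alternatives were no block (for heme, a replicate block), only the groups compared, equal quantiles, averaging the probe sets of a gene, no dim genes, an offset of 50, each replicate left out, 3 arrays left out, and the hybridization round as the block. The comparison of 6 h with 1.5 h, and the fits without the 1.5 h array of replicate 3 alone, were added after the data were seen.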

Additional observations from a re-analysis of the deposited data

Results flagged for a closer look

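The changes at 1.5 h and at 6 h without oxygen differed in *HAP1* cells, by the limma test of 6 h against 1.5 h, for 5 members, with 6 h minus 1.5 h at 2.43 for *HXK1*, 1.77 for *GPM2*, 1.36 for *TDH1*, 0.80 for *PDC6* and 0.70 for *ENO1*. Over all genes 15.3% passed this test, 3.56% upward. No member passed it without the block, with the round as the block, with only the groups compared, or without replicate 1 or replicate 2. Relative to air, *ENO1* was at -0.36 at 1.5 h and 0.34 at 6 h, and *PDC6* at -0.27 and 0.53, in opposite directions in every replicate. The replicate 3 array of 1.5 h, on which *ANB1* and *DAN1* stood low, enters all of these, and its part in them was measured only by leaving it out: *HXK1* was then at 3.29, *GPM2* at 2.46, *TDH1* at 1.59 and *ENO1* at 0.85, while *PDC6* was at 0.63 (adjusted p = 0.109) and no longer passed.

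*ADH1* at 6 h, relative to air, lay on opposite sides of 0 in every replicate of the 2 genotypes, at 0.03 in *Δhap1* cells and -0.05 in *HAP1* cells. The difference of 0.0722 (SE 0.21) did not pass the test (limma adjusted p = 0.97).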

How the results depend on the processing

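Members called at 6 h in *HAP1* cells (1) numbered 0 without the replicate block, 0 with only the groups compared, 0 with an offset of 50, 0 with the hybridization round as block, 2 with equal quantiles and 2 without 3 arrays (replicate 3 at 1.5 h, at 6 h in *HAP1* cells, and with cobalt). For *Δhap1* cells at 6 h against aerobic *Δhap1* cells (2) the counts were 0 without the block, 0 with the round, 5 with only the groups compared and 5 without 3 arrays, and against aerobic *HAP1* cells (4) they were 0, 0 and 1 without the block, with the round and with only the groups compared. Between 6 h and 1.5 h (5) they were 0 in each of these, and 9 without 3 arrays. At 1.5 h (0) there were 4 without 3 arrays and 4 without the 1.5 h array of replicate 3. Under heme deficiency (0) there were 2 with the replicate block and 4 with the round. Isozyme pairs (6) numbered 1 without the block, 1 with the round, 12 without 3 arrays, 9 with equal quantiles and, varying the heme fit, 8 with the replicate block and 9 with the round. Leaving out each replicate gave 0 to 4 members at 1.5 h, 0 to 2 at 6 h in *HAP1* cells, 0 to 2 in *Δhap1* cells against either aerobic group, 0 to 2 under heme deficiency, 0 to 8 between 6 h and 1.5 h, and 1 to 7 pairs. The counts for cobalt, for *Δhap1* cells in air and for the difference between genotypes were 0 in all alternatives. Of single genes and pairs, 629 values kept direction and side of the threshold, 130 lost and 50 gained a call, and 3 reversed: *HXK1* at 1.5 h without replicate 2 (0.0189, and -1.78 without replicate 3), *TPI1* in *Δhap1* cells at 6 h against aerobic *HAP1* cells with the round as block (0.00369), and *GLK1* with cobalt in the same fit (0.0889). Fits with fewer arrays or fewer groups have fewer residual degrees of freedom; otherwise the cause was not tested. Members at background, above all *GPM2*, limit what these arrays measure.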
